A study of Mus musculus with 6 samples.

Results

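The glutathione and antioxidant genes are those by which cells make glutathione, attach it to reactive compounds, break down peroxides and superoxide, and control these enzymes. They were chosen by symbol: all measured members of the numbered glutathione transferase (Gsta, Gstk, Gstm, Gsto, Gstp, Gstt, Mgst), glutathione peroxidase (Gpx) and peroxiredoxin (Prdx) families, with Gclc, Gclm, Gss, Txn1, Txnrd1, Srxn1, Sod1, Sod2, Cat, Nqo1, Hmox1, Cbr1, Cbr3, Nfe2l2 and Keap1. This gave 50 of the 16593 genes measured, on 79 of 25697 probes, and 45 of the 50 had a signal above background on at least 1 array. Gsta1, Gsta2, Gstm3, Gstt4 and Gpx5 did not on any array, and Gsr, glutathione reductase, was not analysed here. Each of 6 cultures gave RNA for 1 array on Illumina mouse-8 V2 BeadChips. They were FAHgc-iPS cells, whose defect had been corrected, of lines #7.1 and #7.2, FAH-/--iPS cells of lines #4 and #7, OG2 ES cells, a mouse ES line that carries an Oct4-GFP reporter, and FAH-/- MEFs, the starting fibroblasts. The iPS cells were derived from fibroblasts of FAH-/- fetuses with retroviral Oct4, Sox2, Klf4 and c-Myc, and each line is 1 clone. Lines #7.1 and #7.2 are subclones of line #7 that received FAH by a lentivirus with the SFFV promoter, so 3 of the 4 iPS cell lines share a derivation and all 4 carry the disrupted gene. The fibroblasts came from fetuses of both sexes, the iPS cell lines are male, and colonies were grown on MEF feeder cells.

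Glutathione is a tripeptide made in the cytosol in a first, rate-limiting step by glutamate-cysteine ligase, with the catalytic subunit Gclc and the modifier subunit Gclm, and a second step by glutathione synthetase, Gss. Transferases couple it to electrophiles, and peroxidases use it to reduce hydrogen peroxide and lipid peroxides, beside the thioredoxin-dependent peroxiredoxins. Many of these genes are induced by the transcription factor Nrf2 (Nfe2l2), which Keap1 marks for degradation, through antioxidant response elements. In FAH deficiency, fumarylacetoacetate from tyrosine breakdown accumulates in liver and kidney, where it reacts with glutathione.

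The start regions of 5 genes are shown because the results below turn on these genes and because a letter match to the core of the antioxidant response element lies in each. Each window holds 250 bases before and 50 bases after a gene's start, as given by RefSeq for GRCm38.p6, and is written 5′ to 3′ on the gene's strand. Capitals mark TGACNNNGC or TGAGNNNGC on either strand, and the second form was searched after the first had been seen. Gclm lies at chr3:122245307-122245606 (+), Gstp2 at chr19:4042172-4042471 (-), Gstp1 at chr19:4037863-4038162 (-), Mgst1 at chr6:138140277-138140576 (+) and Srxn1 at chr2:152105274-152105573 (+).
Gclm: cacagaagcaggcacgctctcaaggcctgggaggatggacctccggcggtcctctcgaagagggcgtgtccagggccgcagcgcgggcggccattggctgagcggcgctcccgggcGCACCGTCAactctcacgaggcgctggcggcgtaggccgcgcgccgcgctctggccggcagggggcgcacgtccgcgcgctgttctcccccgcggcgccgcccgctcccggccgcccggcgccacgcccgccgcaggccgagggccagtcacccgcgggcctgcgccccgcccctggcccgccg
Gstp2: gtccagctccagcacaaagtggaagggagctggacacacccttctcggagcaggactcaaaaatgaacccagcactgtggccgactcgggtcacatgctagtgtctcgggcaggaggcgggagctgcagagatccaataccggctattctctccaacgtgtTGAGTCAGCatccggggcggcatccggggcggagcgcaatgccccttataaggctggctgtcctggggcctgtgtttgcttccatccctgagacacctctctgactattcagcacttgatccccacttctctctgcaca
Gstp1: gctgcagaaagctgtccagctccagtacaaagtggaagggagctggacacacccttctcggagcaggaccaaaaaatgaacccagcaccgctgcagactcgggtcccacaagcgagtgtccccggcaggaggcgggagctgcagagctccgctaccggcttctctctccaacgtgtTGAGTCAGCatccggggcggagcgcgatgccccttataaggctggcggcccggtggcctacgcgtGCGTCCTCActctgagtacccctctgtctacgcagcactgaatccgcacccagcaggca
Mgst1: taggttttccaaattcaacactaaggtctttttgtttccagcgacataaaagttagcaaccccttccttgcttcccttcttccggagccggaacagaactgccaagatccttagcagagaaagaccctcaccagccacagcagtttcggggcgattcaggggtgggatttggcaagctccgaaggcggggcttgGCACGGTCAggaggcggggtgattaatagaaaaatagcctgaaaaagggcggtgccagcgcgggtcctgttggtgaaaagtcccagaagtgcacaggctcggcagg
Srxn1: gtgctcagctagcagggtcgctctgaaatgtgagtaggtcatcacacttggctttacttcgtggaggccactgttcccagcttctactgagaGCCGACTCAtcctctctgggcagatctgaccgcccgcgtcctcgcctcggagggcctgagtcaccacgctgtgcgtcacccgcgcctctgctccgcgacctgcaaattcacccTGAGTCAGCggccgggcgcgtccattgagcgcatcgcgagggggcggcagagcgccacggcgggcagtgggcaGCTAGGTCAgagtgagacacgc
The neighbouring copies Gstp2 and Gstp1 both held TGAGTCAGC, at positions −89 (Gstp2) and −74 (Gstp1) relative to the start, and Srxn1 held the same 9 letters at position −45. Of the 46 genes with a window, 9 (19.6%) held TGACNNNGC, against 14% of 27025 genes in the same table. TGAGNNNGC was found in 8 (17.4%), against 19.8% of all genes, and either form in 14 (30.4%), against 30.8%. Windows of Gclc, Gsta4, Gstt2 and Hmox1 were not used. The TGACNNNGC form stood in 2 of the 4 genes called higher against the MEFs, in 2 of 13 called lower and in 5 of 24 not called. These are matches of letters in a short window and show neither a binding site nor its use.

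Between 42 and 44 of the 50 genes were above background on each array, 40 on all 6. Over all probes the share above background ran from 45.8% to 48.6%, and precision is bounded by having 6 arrays. The cultures carried the markers of their labels: all 10 pluripotency markers were above background in every iPS line and in the ES cells, with a summed linear signal of 46230 to 50660 in the iPS lines, 55070 in the ES cells and 693.9 in the MEFs. The 10 fibroblast markers summed to 1691 to 2027 in the iPS lines, 1565 in the ES cells and 49610 in the MEFs, with 6 or 7 of the 10 above background in the pluripotent cultures. Col1a2, Pdgfrb and Postn were above background in the MEFs alone. Col1a1, Col3a1, Dcn, Fbln2, Lox and Thy1 were above background on all 6 arrays. Macrophage markers summed to 340.0 to 379.2 in the iPS lines, 378.6 in the ES cells and 1754 in the MEFs, with Lyz2 at a log2 signal of 10.47 in the MEFs. Endothelial markers summed to 458.9 to 491.2 in the iPS lines, 475.0 in the ES cells and 552.0 in the MEFs, and endoderm and trophoblast markers to 550.5 to 631.5, 588.6 and 652.1. Fah itself had log2 signals of 7.12, 7.00, 7.12 and 7.25 in lines #7.1, #7.2, #4 and #7, 8.91 in the ES cells and 6.30 in the MEFs, which was not above background. The position of its probe in the gene is not known, so these values check neither the disruption nor the transferred cDNA. The part of these markers in the results below was not tested, and less RNA per cell cannot be told apart from fewer cells of a type.

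**Figure D1:**
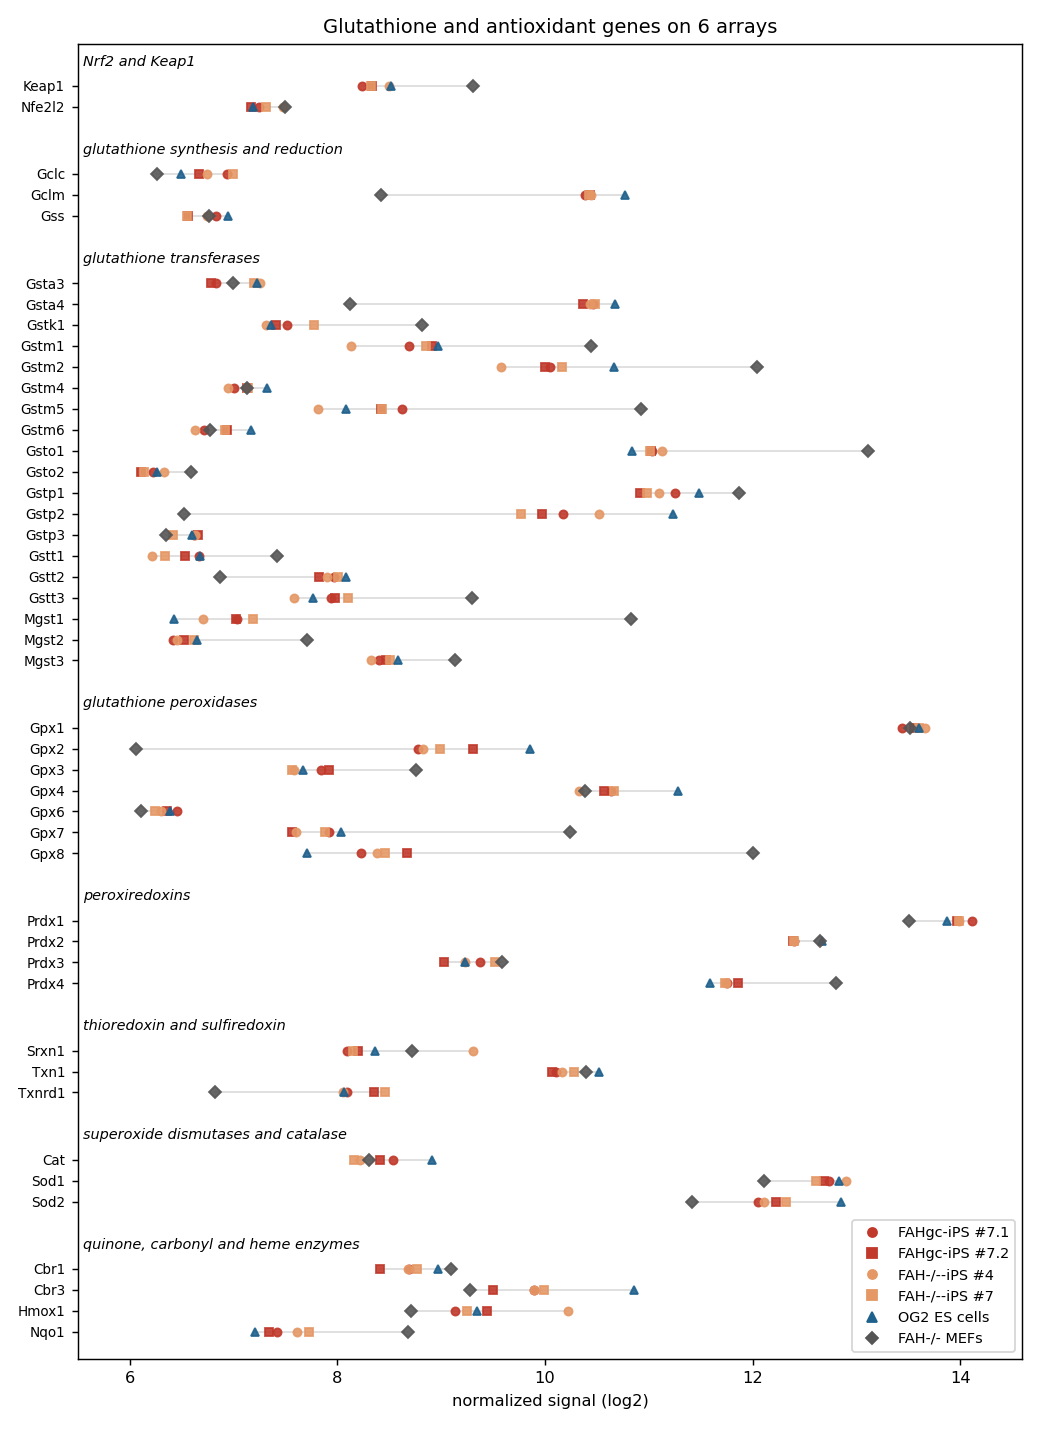
Normalized log2 signal (x axis) of the 45 genes above background, grouped by role, on each of 6 arrays (circles and squares, iPS lines; triangles, OG2 ES cells; diamonds, FAH-/- MEFs). The diamond lies far from the other points for Mgst1, Gpx8, Gstp2 and Gpx2, while the iPS points of Prdx2 and Gclm nearly coincide; signals of different genes come from different probes and cannot be compared with each other.

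Against the fibroblasts, the iPS cell lines had more of Gclm, the modifier subunit of glutamate-cysteine ligase, of thioredoxin reductase (Txnrd1), of the peroxidase Gpx2 and of the transferases Gstp2, Gsta4 and Gstt2. They had less of the mu class transferases Gstm1, Gstm2 and Gstm5, of the microsomal transferases Mgst1 and Mgst2 and of the peroxidases Gpx7 and Gpx8 of the endoplasmic reticulum. A gene was called where limma gave a Benjamini-Hochberg adjusted p under 0.05 over all genes tested and a difference of at least 2-fold. In the comparison of the 4 iPS lines with the MEFs, 6 of 45 genes (13.3%) were called higher and 13 (28.9%) lower, where 13.1% of 10682 genes tested were called higher and 13.0% lower. Their median difference was −0.24 on the log2 scale, against 0.03 over all genes tested. In the comparison of the ES cells with the MEFs, 8 (17.8%) were called higher and 13 (28.9%) lower, where 13.2% of all genes were called higher and 13.7% lower, and the median was 0.01, against 0.03. Both comparisons use the same MEF array, so a deviation of that array enters both. With a single array of MEFs and of ES cells, their spread is taken to be that of the 4 iPS lines, and a p-value then reflects no more than the variation among these cultures. With each array scaled to 1 median in place of quantile normalization, the median over all genes moved to −0.06 for the iPS lines and to −0.12 for the ES cells, and that of the 45 genes to −0.48 for the iPS lines and −0.33 for the ES cells.

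**Figure D2:**
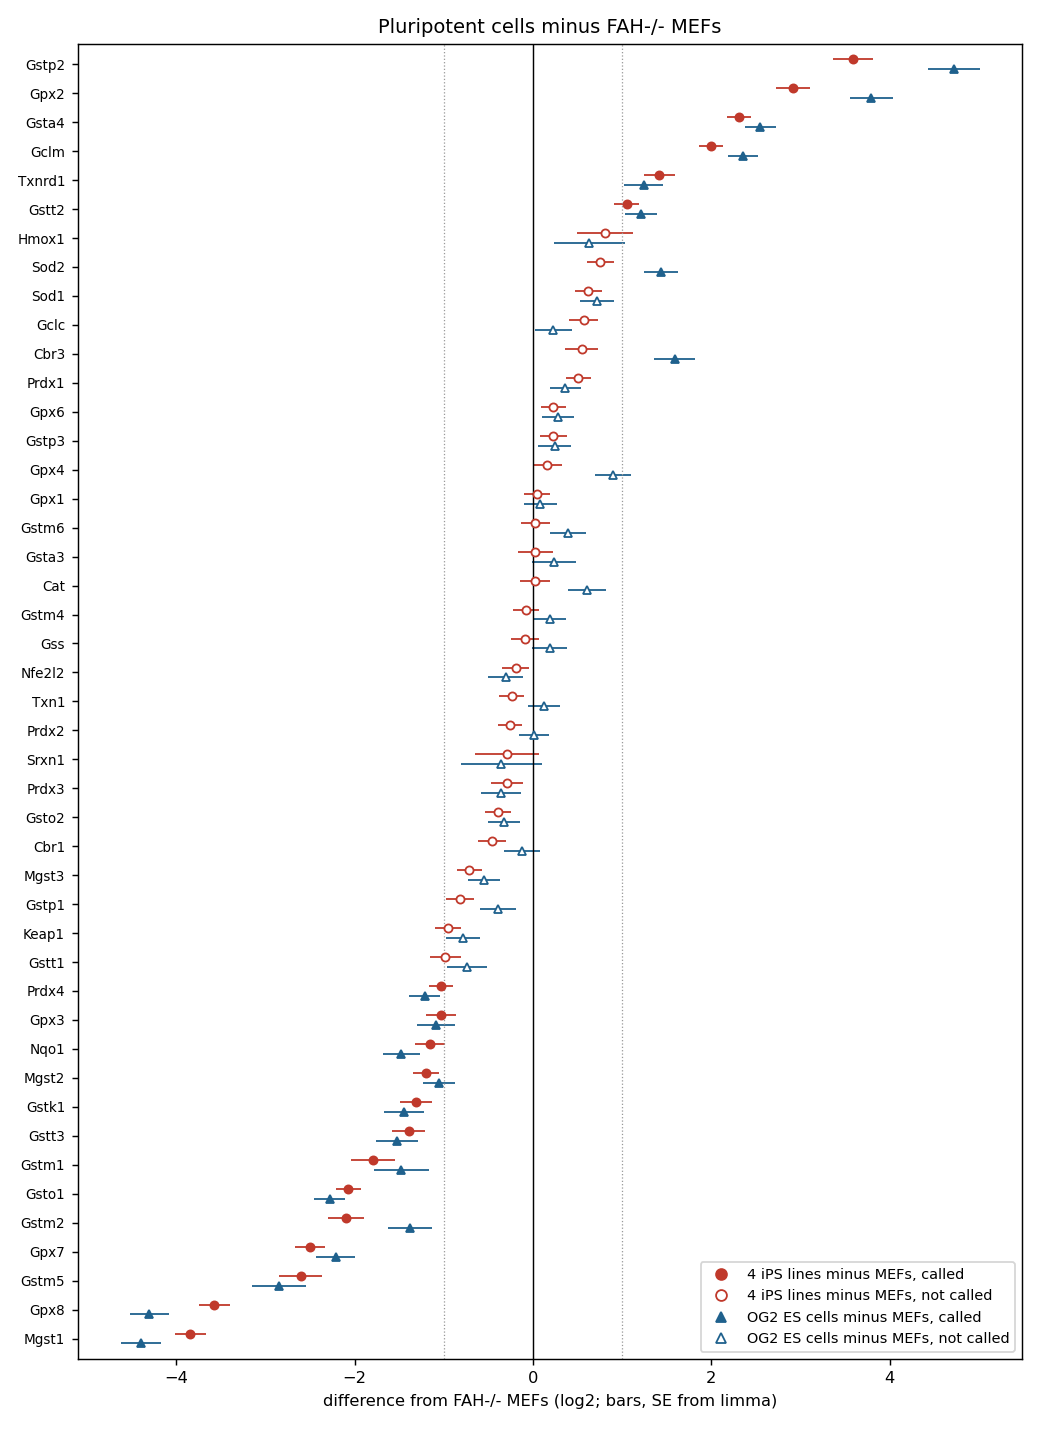
Difference in log2 signal from FAH-/- MEFs (x axis, dotted lines at 2-fold) for the 45 genes, as the mean of 4 iPS lines minus MEFs (circles) and OG2 ES cells minus MEFs (triangles), with the SE from limma; filled symbols are called genes. The differences run from −3.84 (Mgst1) to 3.59 (Gstp2) in the iPS lines and from −4.40 to 4.72 for the same genes in the ES cells.

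Neither regulator passed the 2-fold limit. In what follows the 4 values of the iPS lines are log2 signals of lines #7.1, #7.2, #4 and #7 in that order. Nfe2l2, the Nrf2 gene, had 7.25, 7.17, 7.48 and 7.32 in the iPS lines, 7.19 in the ES cells and 7.49 in the MEFs. All 5 pluripotent cultures lay below the MEFs, but the difference of the iPS lines was −0.19 (SE 0.15, adjusted p = 0.32 from limma) and that of the ES cells −0.31 (SE 0.19, adjusted p = 0.219). Keap1, the adaptor that hands Nrf2 to a ubiquitin ligase, had 8.24, 8.34, 8.50 and 8.32 in the iPS lines, 8.52 in the ES cells and 9.30 in the MEFs. Its groups did not overlap, and the difference of −0.96 (SE 0.15, adjusted p = 0.000151 from limma) stayed just under 2-fold; for the ES cells it was −0.78 (adjusted p = 0.00413). Keap1 passed 2-fold with median scaling (−1.24), with the authors' values floored at background (−1.06) and without line #4 (−1.01). Its 3 other probes gave −0.54, −0.70 and −0.999.

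Of the synthesis genes, the modifier subunit was called higher, whereas the catalytic one, on a dim probe near background, was not. Gclm had 10.39, 10.43, 10.44 and 10.42 in the iPS lines, 10.77 in the ES cells and 8.42 in the MEFs. The 4 lines differed among themselves by an SD of 0.02, and all lay far above the MEFs. The log2 difference was 2.00 in the iPS lines (SE 0.13, adjusted p = 1.71e-07 from limma) and 2.35 in the ES cells (SE 0.17, adjusted p = 5.54e-07). Gclc, which holds the active site, had 6.94, 6.66, 6.74 and 6.99 in the iPS lines, 6.50 in the ES cells and 6.27 in the MEFs, the last not above background. Its mean over the iPS lines was at least 1.45-fold higher (log2 0.57, SE 0.16, adjusted p = 0.00983 from limma), under the 2-fold limit. Its signal in the ES cells was at least 1.15-fold higher (log2 0.23, adjusted p = 0.385 from limma). With the authors' values floored at background, Gclc was called, at 2.00. Gss, which adds glycine, differed by −0.09 in the iPS lines (adjusted p = 0.652), where the groups overlapped.

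The glutathione transferases held most of the lower genes: 8 of the 19 tested were called lower and 3 higher in the iPS lines, with a median of −0.81, and likewise 8 lower and 3 higher in the ES cells, with a median of −0.55. Over all genes, 13.0% were called lower and 13.1% higher in the iPS lines and 13.7% lower and 13.2% higher in the ES cells, so that the share called higher was near that of all genes. Mgst1, a membrane-bound transferase of the endoplasmic reticulum and outer mitochondrial membrane, had 7.04, 7.02, 6.70 and 7.19 in the iPS lines, 6.43 in the ES cells and 10.83 in the MEFs. It was 14.3-fold lower in the iPS lines (log2 −3.84, SE 0.18, adjusted p = 9.33e-09 from limma) and 21.0-fold lower in the ES cells (log2 −4.40). Its second probe, above background on 3 arrays only, gave 0.29. Mgst2, which can form leukotriene C4, had 6.42, 6.52, 6.46 and 6.61 in the iPS lines, 6.65 in the ES cells and 7.70 in the MEFs. That is a difference of −1.20 in the iPS lines (adjusted p = 1.79e-05 from limma) and −1.05 in the ES cells, and without background correction both lay under 2-fold (−0.96 in the iPS lines, −0.85 in the ES cells).

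Among the cytosolic transferases of the mu class, Gstm5 had 8.62, 8.42, 7.82 and 8.43 in the iPS lines, 8.08 in the ES cells and 10.92 in the MEFs. Gstm2 had 10.05, 10.00, 9.58 and 10.16 in the iPS lines, 10.67 in the ES cells and 12.04 in the MEFs. Gstm1 had 8.69, 8.91, 8.13 and 8.85 in the iPS lines, 8.97 in the ES cells and 10.44 in the MEFs. Every pluripotent culture lay below the MEFs for these 3 genes, and line #4 was the lowest of the iPS lines in each. The log2 differences of the iPS lines were −2.60 for Gstm5 (SE 0.24), −2.09 for Gstm2 (SE 0.20) and −1.80 for Gstm1 (SE 0.24), and those of the ES cells −2.84, −1.38 and −1.47. All 3 Gstm2 probes gave −2.09 to −2.26, whereas the second Gstm1 probe, above background on 1 array only, gave 0.09, and with the mean of its probes Gstm1 was called neither in the iPS lines (−0.86) nor in the ES cells (−0.55). Gstm4 differed by −0.08 and Gstm6 by 0.03 in the iPS lines, with overlapping groups. Mu class genes are close copies in 1 cluster, so their probes may share signal and the single gene is uncertain.

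Gsto1, Gstt3 and Gstk1 were also called lower. Gsto1, an omega class enzyme that also reduces dehydroascorbate, had 11.03, 11.02, 11.13 and 11.01 in the iPS lines, 10.84 in the ES cells and 13.12 in the MEFs, a difference of −2.07 in the iPS lines (SE 0.14, adjusted p = 1.57e-07 from limma) and −2.28 in the ES cells. Gstt3, of the theta class, had 7.93, 7.98, 7.58 and 8.11 in the iPS lines, 7.77 in the ES cells and 9.29 in the MEFs, with differences of −1.39 in the iPS lines and −1.53 in the ES cells. Gstk1, of mitochondria and peroxisomes, had 7.51, 7.41, 7.31 and 7.78 in the iPS lines, 7.37 in the ES cells and 8.81 in the MEFs (−1.31 in the iPS lines, −1.45 in the ES cells). None of these 3 genes had overlapping groups. Gstt1 was just under 2-fold in the iPS lines (−0.98, adjusted p = 0.000504 from limma) and above background in 2 of the 4. It was called without line #7.1 (−1.06) or line #7.2 (−1.01), with lines #4 and #7 only (−1.14), with median scaling (−1.22) and with the authors' values plus 50 (−1.22) or floored (−2.34).

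Gstp2, Gsta4 and Gstt2 ran the other way. Gstp2, a pi class transferase, had 10.18, 9.97, 10.52 and 9.77 in the iPS lines, 11.24 in the ES cells and 6.52 in the MEFs. It was 12.0-fold higher in the iPS lines (log2 3.59, SE 0.23, adjusted p = 1.14e-07 from limma) and 26.3-fold higher in the ES cells (log2 4.72, SE 0.29, adjusted p = 1.51e-07). Its neighbour Gstp1, the main pi class enzyme of many tissues, differed by −0.81 in the iPS lines (adjusted p = 0.000891 from limma, under 2-fold) and by −0.39 in the ES cells (adjusted p = 0.13), and was called with median scaling (−1.03). Of its other probes, one gave −0.62 and a dimmer one −0.08, and Gstp3 differed by 0.23 (adjusted p = 0.218). These 3 genes are close copies side by side, so how much of a signal belongs to which is uncertain. Gsta4, which clears the lipid peroxidation product 4-hydroxynonenal, had 10.46, 10.36, 10.44 and 10.48 in the iPS lines, 10.67 in the ES cells and 8.12 in the MEFs. The groups lay far apart, with differences of 2.31 in the iPS lines (SE 0.14, adjusted p = 6.51e-08 from limma) and 2.55 in the ES cells. Gstt2 had 7.96, 7.82, 7.90 and 8.01 in the iPS lines, 8.09 in the ES cells and 6.87 in the MEFs, a difference of 1.05 in the iPS lines and 1.21 in the ES cells. Both lay under 2-fold with median scaling (0.83 in the iPS lines, 0.87 in the ES cells), and that of the iPS lines also without background correction (0.88).

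Of 7 glutathione peroxidases tested, 3 were called lower and 1 higher in the iPS lines, and likewise in the ES cells. The shares over all genes were 13.0% lower and 13.1% higher in the iPS lines, and 13.7% lower and 13.2% higher in the ES cells. Gpx8 and Gpx7, peroxidases of the endoplasmic reticulum that act beside protein disulfide isomerase, were lower. Gpx8 had 8.23, 8.67, 8.38 and 8.46 in the iPS lines, 7.71 in the ES cells and 12.01 in the MEFs, and its 3 probes gave −3.57 to −3.69 in the iPS lines (brightest probe −3.57, SE 0.17, adjusted p = 1.17e-08 from limma) with −4.30 for the brightest in the ES cells. Gpx7 had 7.92, 7.56, 7.61 and 7.88 in the iPS lines, 8.03 in the ES cells and 10.24 in the MEFs (−2.50 in the iPS lines, −2.21 in the ES cells). For neither did any pluripotent culture come near the MEFs. Gpx3, the secreted peroxidase of plasma, had 7.84, 7.92, 7.58 and 7.57 in the iPS lines, 7.67 in the ES cells and 8.76 in the MEFs. Its difference of −1.03 lay at the 2-fold limit and fell under it without line #4 or line #7 (−0.98 each) and without background correction (−0.93). Gpx2, known from the gut epithelium, had 8.78, 9.31, 8.83 and 8.98 in the iPS lines, 9.85 in the ES cells and 6.06 in the MEFs, which was not above background. The mean of the iPS lines exceeded them at least 6.40-fold (log2 2.91, SE 0.19, adjusted p = 1.52e-07 from limma) and the ES cells at least 11.8-fold (log2 3.79). Gpx1, the widespread cytosolic form, differed by 0.05 in the iPS lines (SE 0.14) and 0.08 in the ES cells (SE 0.18), and Gpx4, which protects membrane lipids, by 0.16 in the iPS lines (adjusted p = 0.427 from limma) and 0.89 in the ES cells (adjusted p = 0.00304).

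Prdx5 and Prdx6 were not analysed here. Of the 4 peroxiredoxins tested, Prdx4, the X-linked member of the endoplasmic reticulum, was called lower. It had 11.75, 11.86, 11.74 and 11.73 in the iPS lines, 11.59 in the ES cells and 12.80 in the MEFs, a difference of −1.03 in the iPS lines (SE 0.14, adjusted p = 4.89e-05 from limma) and −1.21 in the ES cells. Prdx1, of the cytosol, was higher by 0.51 in the iPS lines (adjusted p = 0.00802 from limma) and by 0.36 in the ES cells (adjusted p = 0.111). Prdx2 and mitochondrial Prdx3 differed by −0.26 and −0.30 in the iPS lines, with adjusted p of 0.124 and 0.19 from limma. A dimmer Prdx2 probe, above background on 6 arrays, gave 0.23. For the iPS lines minus the ES cells it gave −0.92, where the brightest Prdx2 probe gave −0.27. In the thioredoxin arm, Txnrd1, the selenoprotein that reduces thioredoxin, had 8.09, 8.35, 8.05 and 8.46 in the iPS lines, 8.06 in the ES cells and 6.82 in the MEFs. It was higher by 1.42 in the iPS lines (SE 0.18, adjusted p = 2.65e-05 from limma) and by 1.24 in the ES cells (SE 0.22, adjusted p = 0.000626), the second of which fell under 2-fold with median scaling (0.91). Thioredoxin itself, Txn1, differed by −0.24 in the iPS lines and 0.12 in the ES cells, neither past the test.

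The superoxide dismutases lay higher and the phase II reductases went different ways. Sod2, the manganese enzyme of mitochondria, had 12.05, 12.22, 12.11 and 12.32 in the iPS lines, 12.85 in the ES cells and 11.42 in the MEFs. The ES cells were 2.70-fold above the MEFs (log2 1.43, SE 0.19, adjusted p = 6.51e-05 from limma), and the iPS lines lay between the ES cells and the MEFs, at 0.76 over the MEFs (adjusted p = 0.00104, under 2-fold). Cytosolic Sod1 was higher by 0.62 in the iPS lines and 0.72 in the ES cells, also under 2-fold, and catalase differed by 0.02 in the iPS lines and 0.61 in the ES cells. Cbr3, a carbonyl reductase, had 9.89, 9.50, 9.90 and 9.99 in the iPS lines, 10.86 in the ES cells and 9.27 in the MEFs, with a difference from the MEFs of 1.59 in the ES cells (SE 0.23, adjusted p = 0.000138 from limma) and 0.55 in the iPS lines (adjusted p = 0.024). Nqo1, the quinone reductase used as a reporter of Nrf2 activity, had 7.42, 7.35, 7.61 and 7.73 in the iPS lines, 7.20 in the ES cells and 8.68 in the MEFs. The difference was −1.15 in the iPS lines (SE 0.17, adjusted p = 9.69e-05 from limma) and −1.47 in the ES cells. A second probe was not above background on any array, and the mean over both probes stayed under 2-fold (−0.65 in the iPS lines, −0.78 in the ES cells). Cbr1 differed by −0.46 in the iPS lines and −0.13 in the ES cells, and Hmox1, the heme-degrading enzyme, by 0.80 in the iPS lines (SE 0.31, adjusted p = 0.048 from limma) and 0.63 in the ES cells (adjusted p = 0.217).

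Neighbouring parts of the pathway were counted from lists of other genes, where over all genes 13.1% were called higher and 13.0% lower in the iPS lines. The lists are short, so a count of 1 to 3 is not set apart from those shares. Of 15 tested genes of glutathione precursors and turnover, 2 were higher and 3 lower in the iPS lines than in the MEFs. The largest were Cth, which makes cysteine from cystathionine (log2 1.97, adjusted p = 2.99e-07 from limma), and Chac1, which degrades glutathione (−2.41, adjusted p = 2.67e-05). Of 21 glutaredoxin, thioredoxin and glyoxalase genes, 1 was higher, Txnip, an inhibitor of thioredoxin (1.38), and 2 were lower, Glrx, the cytosolic glutaredoxin, at −2.17 and Esd. Of 9 genes of NADPH supply, 1 was higher, Mthfd1 of the folate cycle (2.80), and 2 were lower, led by Me1, malic enzyme, at −1.78. In the order given, the log2 medians of these 3 lists were −0.28, −0.28 and 0.73 in the iPS lines. In the ES cells they were 0.015, −0.17 and 0.70. None of 11 Nrf2 regulators was called by limma in the iPS lines, and 1 was in the ES cells, Mafg, a small Maf partner of Nrf2, at 1.06. Of 12 other genes known as Nrf2 targets, 6 were lower and 0 higher in the iPS lines (median −0.85), and 4 were lower and 0 higher in the ES cells (median −0.68), with Ephx1, microsomal epoxide hydrolase, at −3.36 in the iPS lines and −3.50 in the ES cells. In the ES cells the first 3 lists had 3 higher and 3 lower of 15, 2 higher and 1 lower of 21, and 1 higher and 2 lower of 9. Over all genes, 13.2% were called higher and 13.7% lower in the ES cells.

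Between the iPS cell lines and the ES cells the antioxidant genes were mostly within 2-fold. Of 45 genes, 0 were called higher and 2 (4.44%) lower in the iPS lines, where 0.449% of all genes tested were called higher and 0.543% lower. At an unadjusted p under 0.05 from limma there were 13 of 45 genes, against 1970 of 10682, and the median was −0.16, against 0.02 over all genes. Gstp2 and Cbr3 were the genes called, with the values given above, and for each the 4 iPS lines lay below the ES cells and above the MEFs. Gstp2 differed by −1.13 (SE 0.23, adjusted p = 0.0189 from limma) and Cbr3 by −1.04 (SE 0.18, adjusted p = 0.00947), whose second probe gave −0.995. Neither was called without line #7.2 (−1.08, adjusted p = 0.0666, and −0.93, adjusted p = 0.0184), with lines #4 and #7 only (−1.09, adjusted p = 0.267, and −0.92, adjusted p = 0.151) or with median scaling (−0.98 and −0.87). A further 4 genes, under 2-fold, had an adjusted p under 0.05 from limma: Gpx2 (−0.88), Gpx4 (−0.73) and Sod2 (−0.68) were lower in the iPS lines, and Gpx8 was higher (0.73). The 3 probes of Gpx8 gave 0.54 to 0.73, while the dimmer Gpx4 probe gave −0.19. OG2 ES cells were the 1 ES cell line arrayed, so a feature of that line cannot be told apart from one of ES cells. The iPS lines carry the disrupted FAH gene, whereas the authors report never having had FAH-/- ES cells. A difference of genotype therefore cannot be told apart from one between iPS and ES cells. The same holds for the ES cells against the FAH-/- MEFs.

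**Figure D3:**
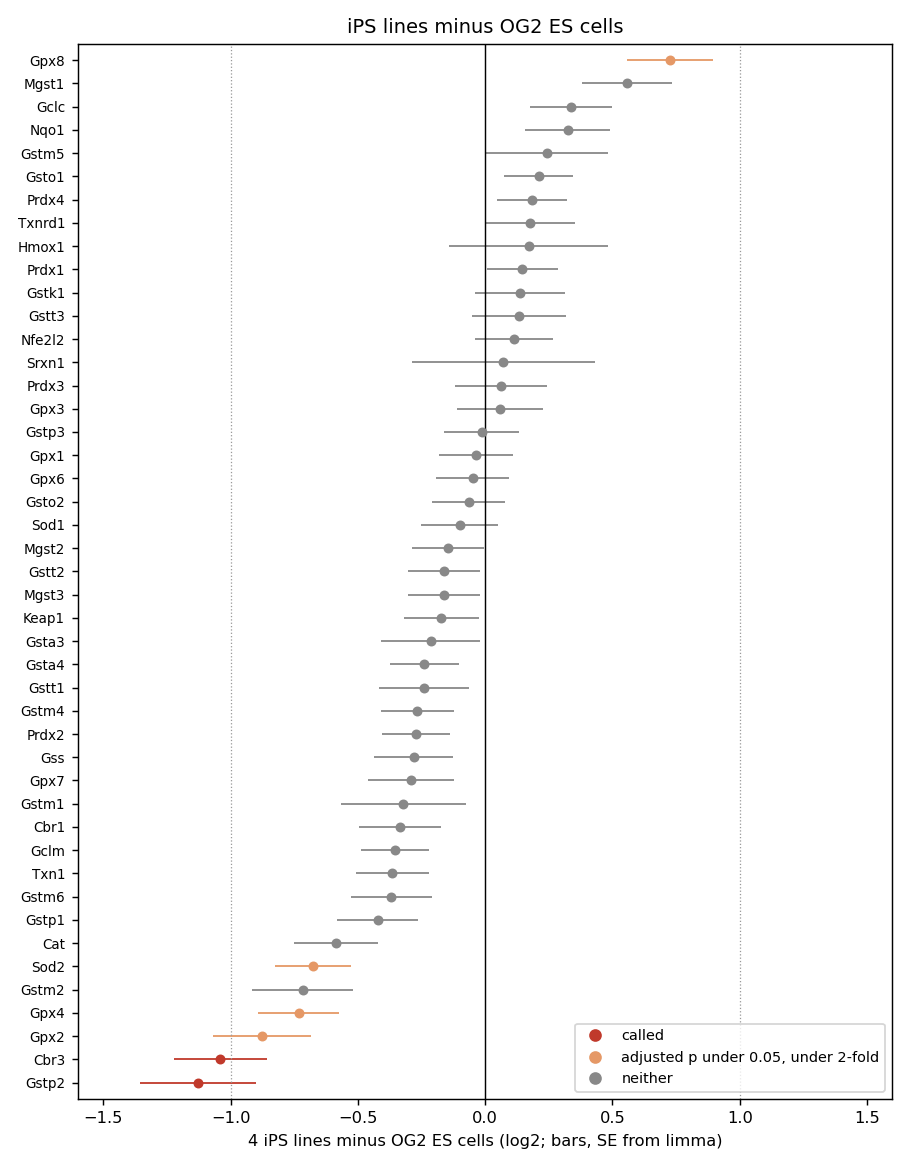
Mean of 4 iPS lines minus OG2 ES cells in log2 signal (x axis, dotted lines at 2-fold) for the 45 genes, with the SE from limma. Gstp2 at −1.13 and Cbr3 at −1.04 are called, and all other differences lie between −0.88 and 0.73.

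None of these genes was called between the gene-corrected and the uncorrected lines. In limma, lines #7.1 and #7.2 against lines #4 and #7 gave 0 of 45 genes called, where 0% of 9796 genes tested were called, and 3 of 45 had an unadjusted p under 0.05, against 449 of 9796. These 3 were Gsta3 (−0.42), Gstt1 (0.32) and Gpx3 (0.31), each with an adjusted p of 0.943. The difference changed sign for Gclc with the line left out, and for Gclm with the line left out or with median scaling. As single arrays, line #7.1 was at least 2-fold from its parent line #7 in 0 of 44 genes, where 0.111% of 9047 genes were, and line #7.2 in 0 of 44, where 0.0110% of 9053 genes were. The SD over the 4 iPS lines had a median of 0.15 over the 45 genes and ran from 0.004 (Prdx2) to 0.58 (Srxn1).

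Line #4, the separate derivation, was set apart by Srxn1, sulfiredoxin, which repairs overoxidized peroxiredoxins. Srxn1 had 8.09, 8.20, 9.30 and 8.15 in lines #7.1, #7.2, #4 and #7, 8.37 in the ES cells and 8.72 in the MEFs. On the brightest probe, line #4 lay above all other cultures, the MEFs included, and was 2.22-fold over line #7 (log2 1.15). This was 1 of 43 genes at least 2-fold apart between lines #4 and #7, where 0.439% of 9118 genes were, with no replicate check. With median scaling, an alternative chosen here after the data had been seen, 3 of the 43 genes passed 2-fold, Srxn1 (1.40), Hmox1 (1.23) and Gstp2 (1.01), where 0.702% of all genes did and the median over all genes moved to 0.16. The other probes of Srxn1 gave 0.72 and 0.97 for line #4 minus line #7. Line #4 and the MEFs had log2 signals of 7.41 and 7.49 on the first of these, and 8.37 and 8.23 on the second. Without line #7, lines #7.1 and #7.2 against line #4 alone gave −1.16 for Srxn1, whereas without line #4 the difference was −0.01. In the first, line #4 stood alone against subclones of 1 parent line, so no spread between derivations was measured. Hmox1, chosen here after its values were seen, had 9.13, 9.44, 10.23 and 9.24 in lines #7.1, #7.2, #4 and #7, 9.34 in the ES cells and 8.71 in the MEFs, so that line #4 was 1.97-fold over line #7 (log2 0.98). The log2 difference of line #4 from line #7 was 0.75 for Gstp2, −0.72 for Gstm1, −0.61 for Gstm5 and −0.59 for Gstm2. The summed fibroblast markers were 1993 in line #4 and 2013 in line #7, but single markers went both ways. Fbln2 had 7.95 in line #4 and 7.27 in line #7, whereas Dcn had 8.61 and 9.21. Nfe2l2 and Keap1 differed by 0.16 and 0.17 between these lines. Whether fibroblast content or Nrf2 had a part in the differences of line #4 was not tested.

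**Figure D4:**
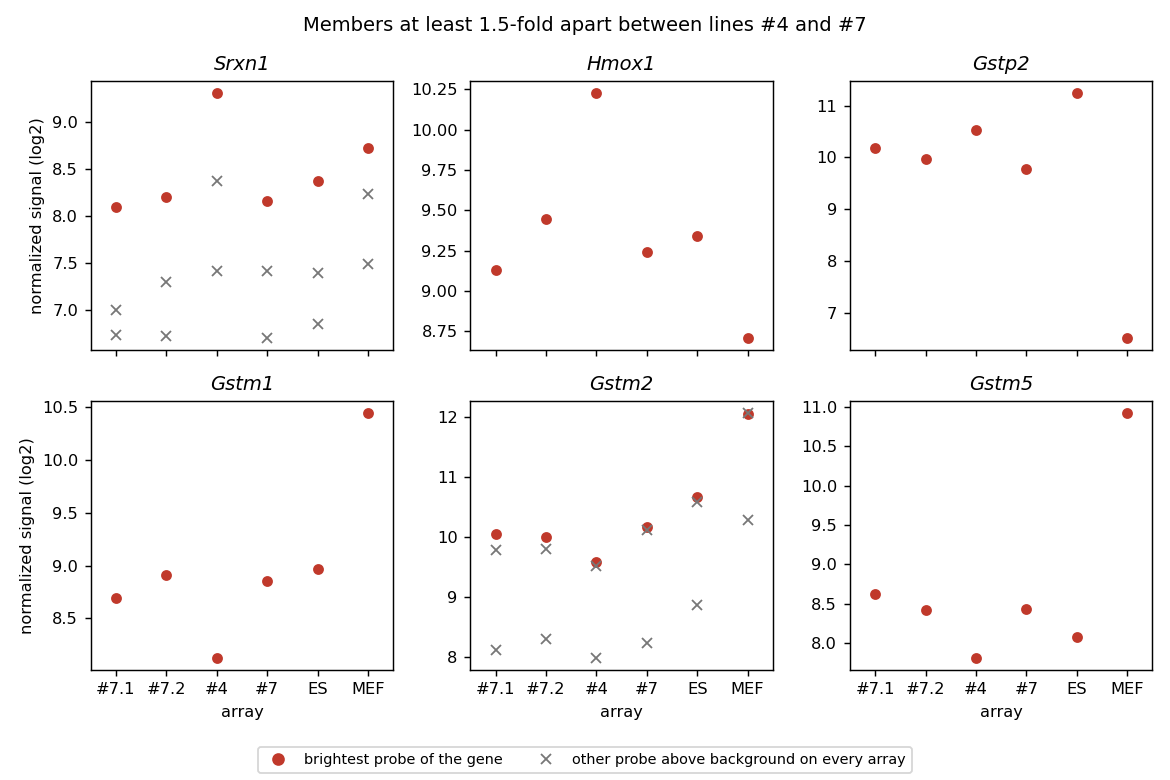
Log2 signal (y axis, scaled per gene) on each of 6 arrays (x axis: iPS lines #7.1, #7.2, #4 and #7, ES cells and MEFs) for the 6 genes at least 1.5-fold apart between lines #4 and #7; red circles are the brightest probe and grey crosses other probes above background on all arrays. All 3 Srxn1 probes are higher in line #4 than in lines #7.1, #7.2 and #7, and for Gstm1, Gstm2 and Gstm5 line #4 is the lowest.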

How the data were processed

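RNA was amplified, labeled and hybridized to 1 BeadChip per culture. The authors deposited, per sample, probe intensity exported from BeadStudio (version not given in the sources used here), which is not background-subtracted and comes with no detection p-value. Their table of the whole series holds intensity after they subtracted background and normalized by cubic spline, and it served as an alternative. Here limma 3.58.1 in R 4.3.3 was used for normexp correction (offset 50), quantile normalization and log2 transformation of the exported signals. A probe was above background at 2.326 noise SDs over the signal at which the authors' value is 0. Of 25697 probes, 23978 name a gene in the platform annotation, and the brightest stood for its gene. The 4 iPS lines, the ES cells and the MEFs entered 1 fit (3 residual degrees of freedom) and the iPS lines another (2). Folds of a group mean against a culture not above background are bounds against the lowest signal above background. They are written as at least N-fold. Scaling, background correction, probe choice, filter, the authors' values, fold limit and left-out lines were varied. The steps were tested on simulated arrays. The genes, lists and tests were chosen with earlier results of these data known. The rule gave values per culture for genes called in any comparison or 2-fold apart between lines, for Nfe2l2, Keap1, Gclc and Gclm, and the largest called change of each list; values of other genes were picked after they had been seen. Sample columns left unused numbered 0.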

Additional observations from a re-analysis of the deposited data

Results flagged for a closer look

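Over the 4 iPS lines, 5 of 42 genes examined had 1 line far from the other 3. The measure was Dixon's ratio of the gap to the nearest line over the whole range. For 4 independent values, chance alone sets off about 1 in 20 such groups, but lines #7.1 and #7.2 are subclones of line #7. The share over all genes was not computed, so the count is not read as an excess. Srxn1 was at 9.30 in line #4, with 8.20 as the next value. Gstp3 was at 6.42 in line #7, against 6.62 for the nearest line. Prdx1 was at 14.12 in line #7.1, against 13.99, Prdx2 at 12.39 in line #7.2, against 12.40, and Prdx4 at 11.86 in line #7.2, against 11.75. The whole range over the lines was 1.21 for Srxn1, but 0.24 for Gstp3, 0.14 for Prdx1, 0.01 for Prdx2 and 0.13 for Prdx4.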

How the results depend on the processing

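The precision is limited by 6 arrays, with 1 MEF and 1 ES cell culture. Counts of called genes stayed within 1.5 times of those reported unless given here. At 3-fold in place of 2-fold, 7 genes were lower in the iPS lines than in the MEFs, 5 higher and 5 lower in the ES cells than in the MEFs, and 0 lower in the iPS lines than in the ES cells. At 1.5-fold, 1 was higher and 5 were lower in the iPS lines than in the ES cells. The count of 2 genes lower in the iPS lines than in the ES cells was 1 on the authors' values after adding 50, and 0 where these were floored, where arrays were scaled to 1 median or where lines #7.1 and #7.2 were dropped, and ran from 0 (without line #7.2) to 2 with 1 line left out. Dropping lines leaves fewer samples; otherwise the cause was not tested. For gene-corrected against uncorrected lines, leaving out a line leaves 1 line in a group. The count moved only without line #7, through Srxn1, and is not read as a result. In that comparison Gclc ran from −0.20 to 0.070 and Gclm from −0.042 to 0.0041 with a line left out, and Gclm was 0.061 with median scaling; neither was called in any setting. The count of 1 gene at least 2-fold apart between lines #4 and #7 was 3 with median scaling, chosen after seeing the data, and 1 without background correction and on the authors' values after adding 50. Of the values for single genes under other settings, 696 kept their direction and side of the threshold, 16 passed it newly, 23 no longer passed it and 4 changed sign. No paired analysis was made, because lines #7.1 and #7.2 both stem from line #7 and line #4 has no corrected subclone among the arrays.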
